A study of Mus musculus with 10 samples.

Results

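The mouse Serpina3 genes are a cluster of closely related serine protease inhibitor genes, and 7 of them, Serpina3c, Serpina3f, Serpina3g, Serpina3i, Serpina3k, Serpina3m and Serpina3n, were followed across the RNA-Seq libraries of 5 mouse embryonic stem cell (mESC) lines. They were taken by symbol from a table of 20325 genes, which lists 10 Serpina3 symbols in all. The other 3 symbols were close to empty, with a highest expected count of 1.0 in any library for Serpina3a and for Serpina3j, and 0.0 for Serpina3b. The family was chosen on its measured change when DAXX or histone H3.3 was put back into knockout cells, so the values of the 3 comparisons of a rescued line with its knockout line are given below as a description. No p is given for a member there, and the calls that the fit over all genes makes on these contrasts are listed as part of that description and support nothing. In those comparisons Serpina3c, Serpina3k, Serpina3m and Serpina3n were lower in the rescued lines, and Serpina3f, Serpina3g and Serpina3i were not lower throughout.

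DAXX is a chaperone that binds histone H3.3 together with H4, and H3.3 is the histone H3 variant that is made outside S phase as well as within it. Both Daxx -/- lines were of 129/SvEv strain, without a transgene or with a wild type Daxx transgene (Daxx -/- + Daxx WT, here the DAXX rescue). The 3 H3.3 KO lines were of 129 x C57BL/6J strain, without a transgene, with wild type H3.3 (H3.3 KO + H3.3 WT) or with the H3.3 mutant named L126A-L130A in the labels (H3.3 KO + H3.3 L126A-L130A), which was designed to bind DAXX without being stably built into nucleosomes. Each line had 2 libraries and nothing in the sources used here describes separate clones of a line, so a p-value below measures the spread between these libraries. With 2 libraries against 2, full separation often arises without a true difference. Statements below that libraries did not overlap are therefore descriptions. The cells grew without feeders in serum-free medium with LIF and with CHIR99021 and PD0325901, inhibitors of GSK3 and of MEK. The transgenes were FLAG-tagged murine DAXX or FLAG-HA-tagged H3.3, expressed from the EF1 promoter of a lentiviral vector under puromycin selection. The design therefore compares forced expression with none on each knockout, and a wild type line that never lost the gene was not analysed here. In bulk RNA, fewer cells that express a gene and less RNA per cell cannot be told apart.

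Serpins are suicide inhibitors. A loop exposed on the protein, the reactive centre loop, is presented to a protease as a bait, is cut, and traps the enzyme by folding into the body of the inhibitor. The mouse Serpina3 genes are the expanded relatives of human alpha-1-antichymotrypsin and differ from each other most in this loop. Serpina3k and Serpina3m are best known as plasma proteins made by the liver, Serpina3n is an acute-phase gene induced through STAT3, Serpina3g inhibits cathepsins and responds to interferon and NF-kB, and Serpina3c encodes a kallikrein-binding protein.

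The 7 genes lie within 267.9 kb of chromosome 12 (GRCm38, chr12:104146382-104414329) in the order c, f, g, i, k, m, n, with Serpina3c on the minus strand and the others on the plus strand. How much they resemble each other decides how well short reads can be told apart between them. Across the coding sequences, Serpina3k and Serpina3m were identical at 91.7% of aligned bases, Serpina3f and Serpina3i at 91.2%, Serpina3c and Serpina3m at 89.5%, and Serpina3m and Serpina3n at 85.2%. The lowest identity, 80.2%, was between Serpina3g and Serpina3k, over only 642 aligned bases, since the Serpina3g model used has 744 coding bases. Serpina3f and Serpina3k were identical at 80.4% of 1218 aligned bases. The 60 coding bases at which the 7 genes were least alike, with a mean pairwise identity of 71.8%, lie in the last exon of each gene and run from the conserved hinge into the part that encodes the reactive centre loop. They are shown because the members differ most there among ungapped 60-base stretches of the aligned coding sequences, with capitals marking each base that differs from Serpina3m. Untranslated sequence and stretches with gaps were not searched, which leaves out coding sequence that the shorter Serpina3g model lacks. In GRCm38 the Serpina3m window is chr12:104393762-104393821 on the plus strand, and that of Serpina3k is chr12:104345262-104345321.
Serpina3m: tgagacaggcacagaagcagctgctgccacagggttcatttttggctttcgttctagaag
Serpina3k: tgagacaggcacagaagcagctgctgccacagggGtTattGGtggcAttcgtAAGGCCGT
Serpina3c: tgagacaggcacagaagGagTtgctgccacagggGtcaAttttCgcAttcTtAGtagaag
Serpina3n: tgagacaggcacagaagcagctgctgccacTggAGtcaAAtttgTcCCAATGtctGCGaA
Serpina3i: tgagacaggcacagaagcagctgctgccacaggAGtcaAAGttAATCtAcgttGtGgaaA
Serpina3f: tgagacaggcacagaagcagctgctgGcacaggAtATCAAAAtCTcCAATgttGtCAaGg
Serpina3g: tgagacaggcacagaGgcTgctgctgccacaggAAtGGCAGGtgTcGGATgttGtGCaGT
Serpina3c differed from Serpina3m at 9 of these 60 bases, Serpina3k and Serpina3i at 13 each, Serpina3n at 16, Serpina3f at 19 and Serpina3g at 20. The most alike 60 bases of the coding sequence, with a mean identity of 96.2% and no difference between Serpina3m and Serpina3n, span the junction of the last 2 exons and overlap the first bases of the window shown, from coding base 1057 to 1116 of Serpina3m against 1092 to 1151.

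Reads that fall in shared stretches have no unique home. Of all 50-base words in the annotated transcripts of Serpina3m, 19.07% occur in another member, most of them in Serpina3k (15.96%), with 1.99% in Serpina3c, 1.12% in Serpina3n and 0.0% in Serpina3f, Serpina3g or Serpina3i. For Serpina3k the share was 13.7%, and for Serpina3c 3.28%. With 36-base words the Serpina3m share was 29.68%, and with 100-base words 6.09%. The read length is not given in the sources used here. Serpina3k and Serpina3m also share an annotated start at position 104338486, since 1 of the 2 Serpina3m transcripts begins there and the other begins at 104387164, so the 2 genes overlap on the same strand. Counts of Serpina3k and Serpina3m are therefore uncertain where reads could belong to either.

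**Figure D1:**
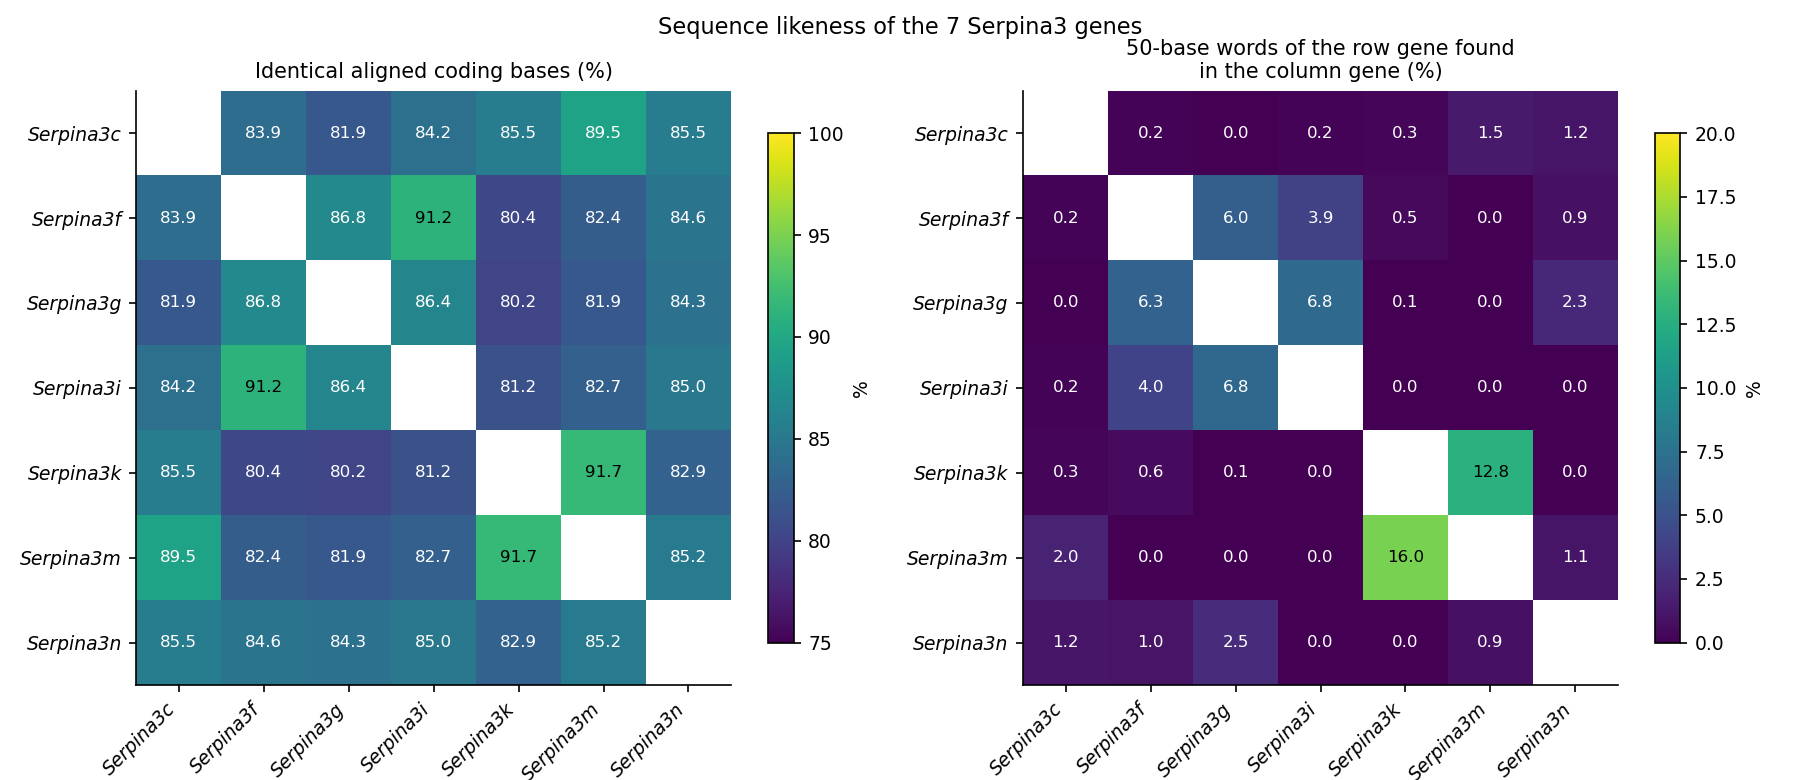
Left, percentage of aligned coding bases that are identical for each pair of Serpina3 genes. Right, percentage of the 50-base words of the row gene that also occur in the transcripts of the column gene. The Serpina3k and Serpina3m pair has 91.7% identity and the largest shares of words (15.96% of Serpina3m, 12.8% of Serpina3k).

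Upstream sequence was read for the 5 members with an entry in the RefSeq table (GRCm38.p6), which are Serpina3c, Serpina3f, Serpina3g, Serpina3i and Serpina3n. The 250 bases before the start of Serpina3c and of Serpina3n, both lower in every rescued line, were identical at 92.7% of aligned bases (229 of 247), with capitals marking bases that differ or have no partner.
Serpina3c: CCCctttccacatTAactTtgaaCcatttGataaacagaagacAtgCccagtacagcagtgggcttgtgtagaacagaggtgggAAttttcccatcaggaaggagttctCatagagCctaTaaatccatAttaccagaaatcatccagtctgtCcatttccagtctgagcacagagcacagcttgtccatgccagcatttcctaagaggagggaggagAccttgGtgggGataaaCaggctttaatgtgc
Serpina3n: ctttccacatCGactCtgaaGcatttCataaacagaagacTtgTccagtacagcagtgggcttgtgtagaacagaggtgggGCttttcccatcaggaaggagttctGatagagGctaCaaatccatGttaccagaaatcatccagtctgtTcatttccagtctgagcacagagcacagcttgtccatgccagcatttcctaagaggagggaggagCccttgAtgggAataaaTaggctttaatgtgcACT
These are chr12:104153873-104154122 on the minus strand and chr12:104406458-104406707 on the plus strand. The same window of Serpina3i, a member whose libraries were not separated downwards in any rescued line, is chr12:104262872-104263121 on the plus strand and was identical to that of Serpina3n at 71.2% of aligned bases and to that of Serpina3c at 72.5%. Capitals mark the bases that differ from Serpina3n or have no partner there.
Serpina3i: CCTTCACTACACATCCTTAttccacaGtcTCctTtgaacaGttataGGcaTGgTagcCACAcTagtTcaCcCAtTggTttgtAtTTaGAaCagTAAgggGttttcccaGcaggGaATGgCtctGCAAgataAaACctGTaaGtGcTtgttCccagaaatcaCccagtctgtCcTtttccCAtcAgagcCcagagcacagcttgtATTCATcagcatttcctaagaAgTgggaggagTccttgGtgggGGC
The letters TTCNNNGAA, the form bound by STAT proteins, were found on either strand in the windows of Serpina3f, Serpina3g and Serpina3i, against 7.02% of 32851 windows. TATAAA was found for Serpina3c and Serpina3f (12.37% of windows). The 9 letters TTCCTAAGA, picked after the sequences were seen, stood in the windows of Serpina3c, Serpina3f, Serpina3i and Serpina3n (0.29% of windows), so they were shared by members that were lower and members that were not. The windows of Serpina3f (first start listed) and Serpina3g, which was lower with DAXX, were identical to that of Serpina3n at 69.5% and 69.9% of aligned bases. Serpina3k and Serpina3m had no window, and the part of upstream sequence in the changes was not tested.

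The libraries held 15463625 to 21396585 expected counts each, and a floor of 3 counts corresponds to 0.149 to 0.202 CPM, the count scaled to a common library size. All 7 stem cell markers, among them Pou5f1 and Nanog, were above 1 CPM in both libraries of every line, with a summed level of 5450 to 7060 CPM. The liver marker Alb had no counts in any library. The sum of 9 hepatocyte markers lay between 2.23 and 4.6 CPM in the lines made from Daxx -/- cells. It lay between 14.4 and 14.8 CPM in H3.3 KO, 16.0 and 17.8 CPM with H3.3 WT, and 23.4 and 27.3 CPM with the mutant. In the H3.3 KO lines it was carried mainly by Apoa2, Fgg and Ahsg. The sum of 8 primitive and visceral endoderm markers lay between 8.81 and 26.0 CPM in Daxx -/- and between 7.03 and 9.76 CPM with DAXX. That of 7 fibroblast markers lay between 27.7 and 40.9 CPM in Daxx -/- and between 12.4 and 17.3 CPM with DAXX, and was carried mainly by Thy1. The fibroblast sum was thus lower in both DAXX-rescued libraries, as were Serpina3c, Serpina3g, Serpina3k, Serpina3m and Serpina3n. In H3.3 KO the fibroblast sum lay between 8.44 and 10.8 CPM. With H3.3 WT it lay between 8.63 and 11.1 CPM, and so was not lower there, while Serpina3c, Serpina3k, Serpina3m and Serpina3n were. With the mutant it lay between 4.38 and 10.1 CPM. The part of these markers in the results was not tested. Daxx was at 77.7 ± 6.88 CPM (SD, n = 2) in the line labelled Daxx -/- and at 61.7 ± 0.305 CPM in the line labelled H3.3 KO, which has the gene, and it was at 206 ± 0.222 CPM with the Daxx transgene. H3f3a was at 436 ± 77.9 CPM in the line labelled Daxx -/- and at 8.06 ± 4.05 CPM in the line labelled H3.3 KO, while H3f3b was at 346 ± 47.1 and 614 ± 149 CPM. With H3.3 WT and with the mutant H3f3a was at 4.0 ± 0.538 and 4.05 ± 1.71 CPM and H3f3b at 171 ± 45.7 and 355 ± 44.3 CPM, so neither total was above that of H3.3 KO with a transgene. The gene totals of Daxx and H3f3b were not low in the lines labelled as knockouts of them. They do not say which exons the reads came from, so they do not check those deletions or the H3.3 transgenes, and the directions below rest on the labels.

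Serpina3m had the highest level of the members in every line except the DAXX rescue. Its expected counts were 1681 and 985.61 in the Daxx -/- libraries and 2 and 0 in the DAXX-rescued libraries. They were 2981.06 and 2384.84 in H3.3 KO, 223.39 and 315.4 with H3.3 WT, and 120.69 and 237.28 with H3.3 L126A-L130A. Every rescued library was thus below every library without a transgene, and the DAXX-rescued line was at or below the floor of 3 counts in both libraries. In CPM the line means were 73.9 ± 27.3 for Daxx -/-, 0.0495 ± 0.07 for the DAXX rescue, 158 ± 14.7 for H3.3 KO, 16.2 ± 2.92 with H3.3 WT and 10.6 ± 3.43 with H3.3 L126A-L130A (SD, n = 2 each). From the pooled counts the level was 1400-fold lower with DAXX, with a 95% counting interval of 388 to 11600, which covers counting error only. It was 9.72-fold lower with H3.3 WT (8.9 to 10.6) and 14.7-fold lower with the mutant (13.2 to 16.4). The last 2 comparisons share the H3.3 KO libraries.

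Serpina3k, the contrapsin gene, stood next in both knockout lines, while Serpina3i stood above it in all 3 rescued lines. Its counts were 197.91 and 108.34 in Daxx -/-, 0 and 2 with DAXX, 345.17 and 290.81 in H3.3 KO, 16.75 and 36.11 with H3.3 WT, and 10.08 and 19.91 with the mutant. Again no rescued library reached a library of its knockout line. The pooled level was 161-fold lower with DAXX (44.2 to 1340), 11.7-fold lower with H3.3 WT (8.85 to 15.8) and 20.8-fold lower with the mutant (14.4 to 31.1).

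Serpina3n and Serpina3c had few counts. For Serpina3n they were 42.42 and 49.49 in Daxx -/-, 4 and 0 with DAXX, 56.29 and 43.73 in H3.3 KO, 4.67 and 7.27 with H3.3 WT, and 5.73 and 5.97 with the mutant. For Serpina3c they were 27.36 and 16.69 in Daxx -/-, 0 and 0 with DAXX, 29.93 and 44.76 in H3.3 KO, 1.2 and 2.21 with H3.3 WT, and 1.3 and 1.19 with the mutant. Both genes were lower in each rescued library than in either library of the matching knockout line. The pooled level of Serpina3n was 24.2-fold lower with DAXX (9.15 to 90.8), 8.14-fold lower with H3.3 WT (4.46 to 16.3) and 8.17-fold lower with the mutant (4.48 to 16.3). Serpina3c was at least 7.7-fold lower with DAXX, set against a floor of 3 counts per library. With H3.3 WT it was 24.4-fold lower (8.04 to 121), and with the mutant 36.8-fold lower (9.83 to 309), ratios that rest on 3.41 and 2.49 counts in the rescued lines.

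Serpina3i behaved otherwise. Its counts were 39.23 and 44.61 in Daxx -/-, 42 and 42.31 with DAXX, 42.36 and 17 in H3.3 KO, 63.22 and 62.83 with H3.3 WT, and 41.7 and 61.47 with the mutant. The libraries with and without DAXX overlapped, and the pooled ratio was 1.05-fold lower with DAXX, with an interval of 0.769 to 1.44 that includes no difference. Both H3.3-rescued lines lay above both H3.3 KO libraries in CPM, 2.19-fold with H3.3 WT (1.59 to 3.03) and 1.78-fold with the mutant (1.28 to 2.5). These ratios lean on H3.3 KO replicate 2, the library with 17 counts. Without it the fitted log2 fold changes were 0.68 with H3.3 WT and 0.38 with the mutant, and without H3.3 KO replicate 1 they were 1.85 and 1.54. The sign of the change with DAXX also turned on single libraries, since it was 0.03 without Daxx -/- replicate 2, 0.02 without Daxx -/- + Daxx WT replicate 1 and -0.17 without either of the other 2 libraries.

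Serpina3f and Serpina3g were close to the limit of detection and did not pass the filter of 1 CPM in 2 libraries. Serpina3f had 1.03 and 3.99 counts in Daxx -/-, 0 and 1.03 with DAXX, 3.06 and 1.01 in H3.3 KO, 5.07 and 5.64 with H3.3 WT, and 1.02 and 7.28 with the mutant. Its libraries overlapped between DAXX-rescued and Daxx -/- cells. Serpina3g had 3.49 and 12.38 counts in Daxx -/-, 0 and 2.03 with DAXX, 7.16 and 1.95 in H3.3 KO, 17.71 and 9.53 with H3.3 WT, and 6.47 and 8.93 with the mutant. It was 8.43-fold lower with DAXX (1.98 to 75.6) and 3.07-fold higher with H3.3 WT (1.4 to 7.43). With the mutant it was 1.7-fold higher (0.697 to 4.4), an interval that includes no difference.

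**Figure D2:**
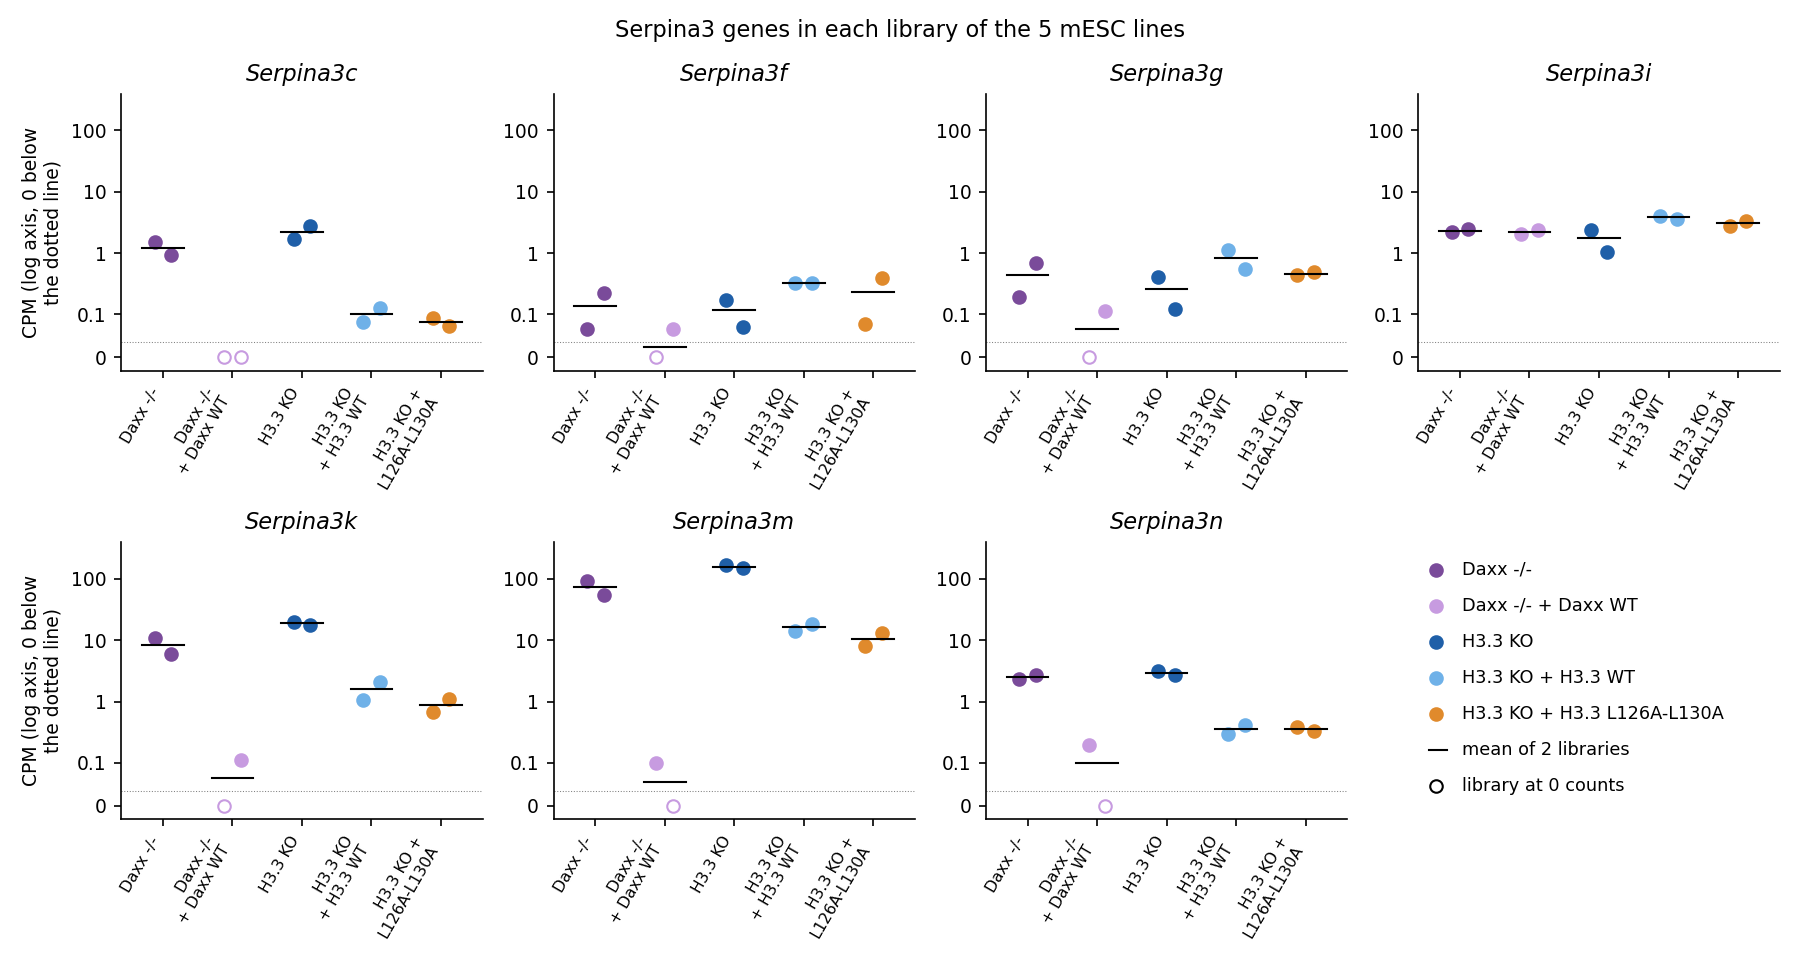
CPM (library-size-scaled counts, log axis) of each Serpina3 gene in the 2 libraries of each of the 5 lines, with points for libraries, bars for means and open points below the dotted line for libraries at 0 counts. Serpina3c, Serpina3k, Serpina3m and Serpina3n are lower in all rescued libraries than in the libraries without a transgene, and Serpina3i stays between 1.06 and 4.01 CPM throughout.

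Compared per kilobase of transcript, Serpina3m stood at 44.5 ± 16.4 CPM per kb in Daxx -/- and 95.5 ± 8.86 in H3.3 KO, and Serpina3k at 4.13 ± 1.71 and 9.14 ± 0.514 CPM per kb. Serpina3n was at 1.23 ± 0.134 and 1.43 ± 0.162 CPM per kb, Serpina3i at 1.06 ± 0.0956 and 0.785 ± 0.432, and Serpina3c at 0.552 ± 0.189 and 1.01 ± 0.346. In the rescued lines the order changed. Serpina3i was second to Serpina3m with H3.3 WT (1.74 ± 0.118 against 9.79 ± 1.76 CPM per kb) and with the mutant (1.4 ± 0.177 against 6.36 ± 2.07). In the DAXX-rescued line it was first, because Serpina3i remained at 1.01 ± 0.0944 CPM per kb and every other member had a mean of at most 0.048 CPM per kb. Serpina3i held 1.97% and 3.65% of the counts of the 7 members in the Daxx -/- libraries, and 87.5% and 89.3% in the DAXX-rescued libraries. With H3.3 WT it held 19.0% and 14.3%, against 1.22% and 0.611% in H3.3 KO.

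Across lines, the order of Serpina3m levels was H3.3 KO, Daxx -/-, H3.3 WT, H3.3 L126A-L130A and DAXX rescue, and no neighbours in that order overlapped in their 2 libraries. The order was the same for Serpina3k and Serpina3c, but their libraries with H3.3 WT and with the mutant overlapped. For Serpina3n the libraries of the 2 knockout lines overlapped, and so did those of the 2 H3.3-rescued lines, at 0.359 ± 0.0888 and 0.356 ± 0.0422 CPM. Serpina3i ran in another order, H3.3 WT, H3.3 L126A-L130A, Daxx -/-, DAXX rescue and H3.3 KO, in which the last 3 overlapped with their neighbours.

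Of the 7 members, 5 passed the filter on low values and were fitted with the 13201 genes tested. On the log2 scale the fitted changes with DAXX were -7.14 ± 0.78 for Serpina3k, -10.27 ± 0.60 for Serpina3m, -4.51 ± 0.79 for Serpina3n and -0.07 ± 0.43 for Serpina3i (standard error), and those with counts near 0 depend on the small count that the fit adds. Without Daxx -/- + Daxx WT replicate 1 the values were -6.15 for Serpina3k, -13.30 for Serpina3m and -8.44 for Serpina3n, and without Daxx -/- + Daxx WT replicate 2 they were -10.20, -9.45 and -3.63. With H3.3 WT they were -4.52 ± 0.73 for Serpina3c, -3.56 ± 0.54 for Serpina3k, -3.29 ± 0.33 for Serpina3m, -3.00 ± 0.68 for Serpina3n and 1.15 ± 0.43 for Serpina3i. With the mutant they were -5.05 ± 0.77, -4.39 ± 0.57, -3.90 ± 0.35, -2.99 ± 0.68 and 0.84 ± 0.43 for the same genes in the same order. At an adjusted p under 0.05 and a 2-fold change, edgeR called 4 of the 5 lower with DAXX (Serpina3c, Serpina3k, Serpina3m and Serpina3n), where 0.795% of all tested genes were called lower and 0.288% higher. It called 2 lower with H3.3 WT (Serpina3k and Serpina3m), where 0.212% of genes were called lower and 0.0379% higher. With the mutant it called 3 lower (Serpina3c, Serpina3k and Serpina3m), where 0.606% of genes were called lower and 0.182% higher. Since the members were selected on these contrasts, nothing is read from these shares. The counts of calls also rest on single libraries. Fits without 1 library left a line with a single library, and the number of calls over all genes changed with the library left out. The loss of a member's call in such a fit is therefore no result about that member. In each of these fits the direction of the 4 genes stayed the same.

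**Figure D3:**
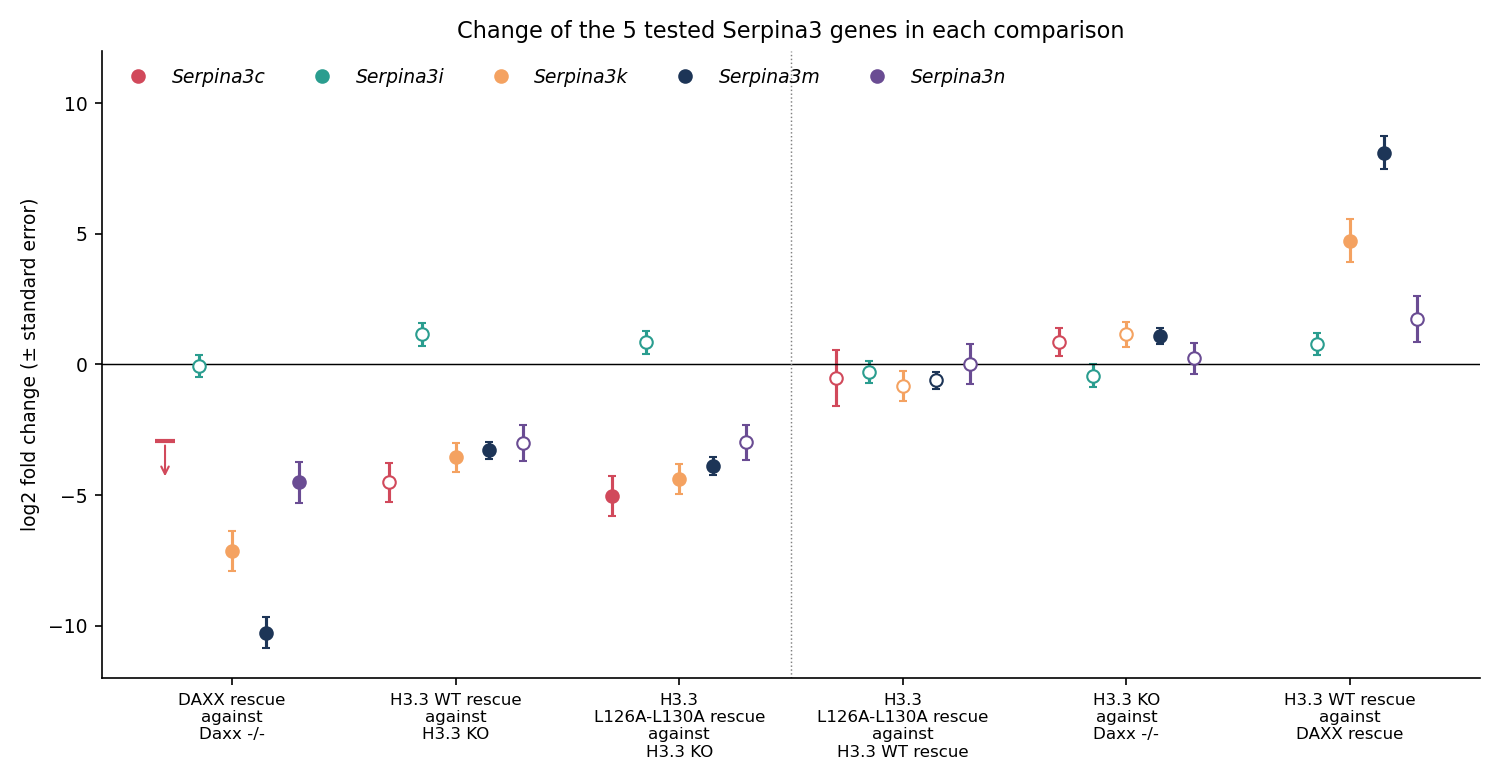
Log2 fold change with its standard error for the 5 tested Serpina3 genes in 6 comparisons, filled where edgeR made a call and open where it did not. Left of the dotted line are the comparisons on which the family was chosen. The arrow marks a lower bound for Serpina3c, which had no counts with DAXX, and no value is drawn for it against the DAXX rescue.

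The mutant against wild type H3.3 asks whether the 2 transgenes left the family at different levels on the same knockout. This comparison did not choose the members, though its libraries were part of comparisons that did. None of the 5 tested members was called, against 0.515% of all genes tested. Serpina3m was 0.61 lower on the log2 scale with the mutant (95% interval of the log2 fold change -1.35 to 0.12, edgeR adjusted p = 0.505). Both mutant libraries lay below both wild type libraries, which adds little to that test with 2 libraries per line. For Serpina3k the log2 fold change was -0.83 (-2.10 to 0.45, adjusted p = 0.651). For Serpina3i it was -0.31 (-1.26 to 0.64, adjusted p = 0.861). For Serpina3c it was -0.53 (-2.95 to 1.89, adjusted p = 0.925) and for Serpina3n 0.01 (-1.75 to 1.76, adjusted p = 0.999), in edgeR's quasi-likelihood test. The Serpina3c libraries held 1.2 and 2.21 counts with H3.3 WT and 1.3 and 1.19 with the mutant. All are under the floor of 3 counts, so the Serpina3c value cannot tell whether the lines differ. The intervals of Serpina3c and Serpina3n include a 2-fold change in either direction, and those of Serpina3i, Serpina3k and Serpina3m include a 2-fold fall but no 2-fold rise with the mutant. At an unadjusted p under 0.05 none of the 5 passed, against 1627 of the genes tested, and DESeq2 called none of them either.

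The lines without a transgene differ in targeted gene and strain, which cannot be told apart, and the same holds between the DAXX rescue and the H3.3 rescue. Both comparisons reuse libraries of the comparisons on which the family was chosen. Their p-values for members are therefore no independent support. In H3.3 KO against Daxx -/-, Serpina3m rose by 1.10 ± 0.31 on the log2 scale (edgeR adjusted p = 0.0315), with both H3.3 KO libraries above both Daxx -/- libraries, where 11.7% of all genes were called in either direction. That call was lost without Daxx -/- replicate 2 (0.77, adjusted p = 0.102), without H3.3 KO replicate 1 (1.00, adjusted p = 0.141), without H3.3 KO replicate 2 (1.19, adjusted p = 0.102) and when the 2 lines were fitted alone (1.09, adjusted p = 0.0603). Over all its alternatives the adjusted p ran from 0.00337 to 0.141. Serpina3k had a log2 fold change of 1.15 (0.06 to 2.24, adjusted p = 0.115), Serpina3c of 0.87 (-0.34 to 2.09, adjusted p = 0.27), Serpina3n of 0.23 (-1.09 to 1.54, adjusted p = 0.806) and Serpina3i of -0.43 (-1.41 to 0.55, adjusted p = 0.5), none of them called by edgeR.

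With wild type H3.3 put back, Serpina3m and Serpina3k stayed above the level reached with DAXX. The members were chosen partly on their values in these same libraries, so the p-values and calls below describe them and support nothing further. Serpina3m was higher by 8.09 ± 0.63 on the log2 scale (edgeR adjusted p = 0.000336), and Serpina3k by 4.73 ± 0.83 (adjusted p = 0.0072), and 8.45% of all genes were called between these lines. In pooled counts that is 311-fold for Serpina3m (85.6 to 2570) and 30.5-fold for Serpina3k (8.05 to 259), each against 2.0 counts in the DAXX-rescued libraries. The call of Serpina3m held in 11 of 11 alternatives, with adjusted p up to 0.00568, but its size was 11.11 without Daxx -/- + Daxx WT replicate 1 and 7.26 without replicate 2 of that line. The call of Serpina3k was lost without Daxx -/- + Daxx WT replicate 1 (3.74, adjusted p = 0.0577) and without H3.3 KO + H3.3 WT replicate 2 (4.17, adjusted p = 0.0538), and its value was 7.79 without Daxx -/- + Daxx WT replicate 2. Serpina3n, with 11.94 against 4.0 summed counts, had a log2 fold change of 1.74 (-0.26 to 3.74, adjusted p = 0.196), which was 5.66 without Daxx -/- + Daxx WT replicate 1 and 0.85 without replicate 2 of that line. For Serpina3i it was 0.79 (-0.17 to 1.75, adjusted p = 0.222). For Serpina3c every library of both lines was at or under 3 counts, and no fold is given.

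The question of how reads were split among the paralogs was taken to the fractions that the authors' program leaves when it divides a read among genes. Of 36 member values of at least 10 counts, 33 (91.7%) were not whole numbers, against 48.3% of 130061 such values over all genes. Serpina3i, which shares no 50-base word with Serpina3k or Serpina3m, was not whole in 8 of 10 libraries, and 7.61% of its own 50-base words occur in another member.

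Each member was also set against Serpina3m in the 8 libraries with at least 10 Serpina3m counts, over which Serpina3m itself ranged 24.7-fold. Serpina3k lay between 7.5 and 12.2 counts per 100 Serpina3m counts, a range of 1.63-fold. The ratio was 11.8 and 11.0 in the Daxx -/- libraries, 11.6 and 12.2 in H3.3 KO, 7.5 and 11.4 with H3.3 WT, and 8.35 and 8.39 with the mutant. The 95% counting intervals of all 8 overlap. Serpina3n ranged from 1.83 to 5.02 per 100 and Serpina3c from 0.502 to 1.88, ranges of 2.74-fold and 3.75-fold. The Serpina3n ratio was 5.02 (3.65 to 6.62) in Daxx -/- replicate 2 and 1.83 (1.34 to 2.48) in H3.3 KO replicate 2, intervals that do not meet. In Daxx -/- replicate 1 it was 2.52 (1.79 to 3.39). That interval does not meet replicate 2 of its own line and overlaps that of H3.3 KO replicate 2, so the gap is no difference between lines. Serpina3i ranged from 0.713 to 34.6 per 100, a range of 48.5-fold, and did not keep a ratio to Serpina3m. Whether part of the Serpina3k count comes from Serpina3m transcripts was not tested.

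**Figure D4:**
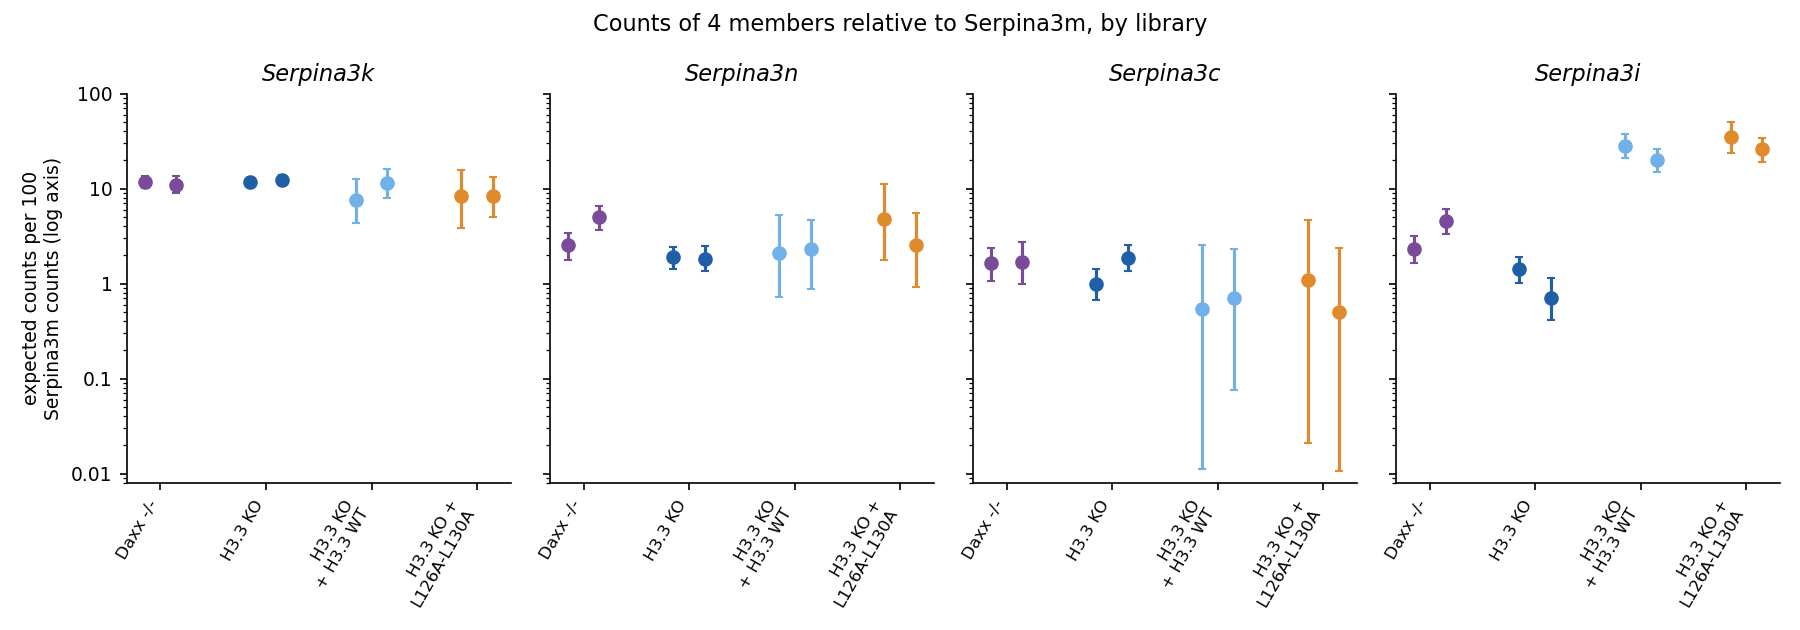
Expected counts of Serpina3k, Serpina3n, Serpina3c and Serpina3i per 100 counts of Serpina3m (log axis), for each library of the 4 lines with at least 10 Serpina3m counts, with 95% counting intervals. Serpina3k stays between 7.5 and 12.2, while Serpina3i runs from 0.713 to 34.6.

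The sum over the 7 members does not depend on how reads were divided within the family. It was 110 and 67.7 CPM in Daxx -/- and 2.38 and 2.66 CPM with DAXX, a log2 ratio of -5.14. It was 196 and 173 CPM in H3.3 KO, 21.1 and 25.5 CPM with H3.3 WT (log2 ratio -2.99), and 12.6 and 18.7 CPM with the mutant (-3.56). In each case the rescued libraries lay below those of the knockout line. What was left of the sum in DAXX-rescued cells was mostly Serpina3i, and without it the libraries were at 0.297 and 0.284 CPM and the log2 ratio was -8.22.

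The neighbouring genes were read beside the family. Of 76 other annotated genes within 1 Mb of either end of the cluster, 34 were in the table and 10 passed the filter. None of the 10 was called in a comparison of a rescued line with its knockout line. Over all 13201 tested genes 143, 33 and 104 were called with DAXX, H3.3 WT and the mutant, so no call among 10 genes says little. The 10 had median log2 changes of -0.01 with DAXX, 0.09 with H3.3 WT and -0.04 with the mutant, beside medians of -0.02, 0.02 and 0.03 over all tested genes. Gsc, the homeobox gene nearest to Serpina3n among them, was at 2.77 and 4.43 CPM in Daxx -/- and at 1.14 and 2.69 CPM with DAXX (log2 fold change -0.92 ± 0.47, edgeR adjusted p = 0.285). Dicer1, the processing enzyme of small RNAs, was at 120 and 113 CPM in Daxx -/- and 116 and 125 CPM with DAXX. The largest changes among the 10 were -0.92 with DAXX and 0.79 ± 0.45 with H3.3 WT, both of Gsc, and -1.37 ± 0.82 with the mutant, of Asb2. On the Serpina3c side the nearest tested gene was Ppp4r4, which ends at position 103613831, and the serpin genes between it and Serpina3c were not tested. Within the cluster, Serpina3f, Serpina3g and Serpina3i lie between Serpina3c on one side and Serpina3k, Serpina3m and Serpina3n on the other.

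**Figure D5:**
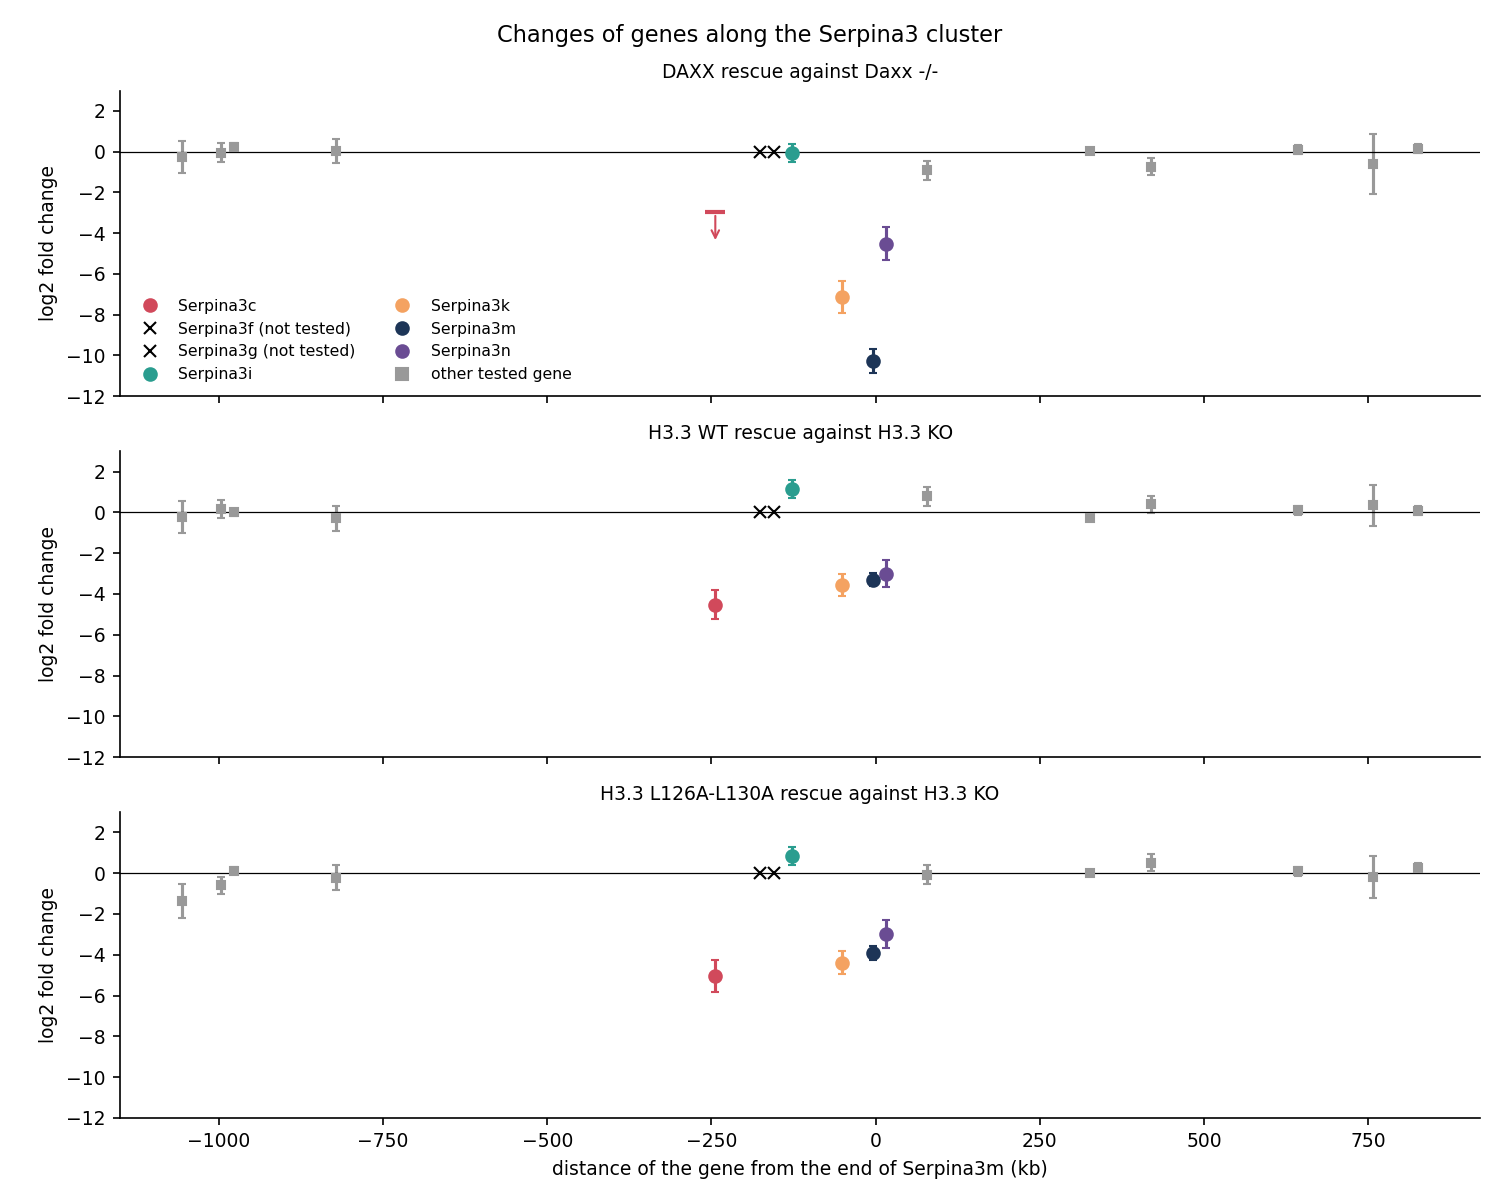
Log2 fold change with its standard error of each tested gene against its distance (kb) from the end of Serpina3m, for the 3 rescued lines against their knockout lines, with members in colour, other tested genes in grey, crosses for members not tested (drawn at 0, with no value) and an arrow for a lower bound. Serpina3m is drawn at its shorter transcript. The 10 tested neighbours lie on both sides of 0, with medians of -0.01, 0.09 and -0.04 and values down to -1.37.

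Other gene groups linked to these serpins were read from fixed lists, beside the same 143, 33 and 104 calls over all 13201 tested genes. At such shares a list of this size often holds no call, so a lack of calls says little. Of 51 other serpin genes, 11 passed the filter, and Serpinf1, which encodes the antiangiogenic protein PEDF, was the only one called in a comparison of a rescued line with its own knockout line. It was at 6.51 and 10.5 CPM in H3.3 KO and at 0.202 and 0.985 CPM with the mutant (log2 fold change -3.78 ± 0.62, edgeR adjusted p = 0.0347). Its log2 fold change was -1.87 ± 0.56 with H3.3 WT (adjusted p = 0.221) and -2.27 ± 0.64 with DAXX (adjusted p = 0.0991). The median log2 change of the 11 was -0.53 with DAXX, -0.09 with H3.3 WT and -0.53 with the mutant.

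Serpina3n answers to STAT3 and Serpina3g to interferon, so both pathways were listed. None of 14 tested genes of LIF and STAT3 signalling was called in a rescued line against its own knockout line, with medians of -0.21, 0.08 and 0.06 for DAXX, H3.3 WT and the mutant. Socs3, the feedback inhibitor of STAT3 signalling, was at 51.5 and 107 CPM in Daxx -/- and at 49.1 and 80.1 CPM with DAXX. The largest change of the 14 with DAXX was that of Pim1 (-1.18 ± 0.25, edgeR adjusted p = 0.0565). Pim1 was at 111 and 144 CPM in Daxx -/- and at 48.7 and 63.7 CPM with DAXX. The largest rise was that of Cish (0.64 ± 0.66). In the same 3 comparisons none of 15 tested interferon and NF-kB genes was called (medians -0.10, -0.07 and 0.00). With DAXX the largest fall was that of Cxcl10 (-3.21 ± 0.81, to 3 counts or fewer per library) and the largest rise that of Nfkb1 (1.07 ± 0.23). H2-K1 had the largest fall with H3.3 WT (-1.20 ± 0.38) and with the mutant (-1.43 ± 0.38). It was at 67.8 and 70.9 CPM in H3.3 KO, 28.4 and 31.7 with H3.3 WT and 20.6 and 30.6 with the mutant. The largest rises there were those of Cxcl10 (4.17 ± 1.77, from no counts) and Tnfaip3 (0.71 ± 0.57). None of 7 tested proteases of the kinds that such serpins inhibit was called (medians -0.58, 0.05 and -0.13). Against the wild type H3.3 rescue, the mutant gave no call in any of these lists or among the neighbours, where 0.515% of all tested genes were called.

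Between the lines of different targeted gene and strain some of these genes differed, as did many others. In H3.3 KO against Daxx -/- 11.7% of all tested genes were called. The calls in the lists were 3 of 11 serpins, 1 of 14 STAT3 genes and 4 of 15 interferon genes. Among proteases they were 0 of 7 and among neighbours 1 of 10. Nothing is read from shares of lists this small. In H3.3 KO against Daxx -/-, Serpinb6c (2.09 ± 0.49, adjusted p = 0.0179) and Serpinf1 (2.13 ± 0.56, adjusted p = 0.0266) rose and Serpine2, which encodes protease nexin-1, fell by 2.88 on the log2 scale (adjusted p = 0.00128, edgeR). H2-K1, a class I histocompatibility gene, rose by 2.23 ± 0.39 (adjusted p = 0.00562), the interferon signalling factor Irf9 by 1.15 (adjusted p = 0.0102), the NF-kB subunit gene Nfkb1 by 1.01 (adjusted p = 0.0163), the pluripotency factor Klf5 by 1.06 (adjusted p = 0.00193) and the neighbour Otub2, a deubiquitinase gene, by 1.58 (adjusted p = 0.0334). Cxcl10, an interferon-induced chemokine gene, had 1.11 and 1.44 CPM in Daxx -/- and no counts in H3.3 KO (edgeR adjusted p = 0.00968).

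In the wild type H3.3 rescue against the DAXX rescue, 8.45% of all tested genes were called, and serpins were called in both directions. The calls were 5 of 11 serpins, 4 of 14 STAT3 genes and 0 of 15 interferon genes. Among proteases they were 2 of 7 and among neighbours 2 of 10, and again nothing is read from these shares. Serpinb6c (2.71 ± 0.53, adjusted p = 0.0106), Serpinf1 (2.52 ± 0.64, adjusted p = 0.0274) and the complement inhibitor gene Serping1 (2.58 ± 0.60, adjusted p = 0.0205) were higher by edgeR. Serpine2 fell by 2.14 on the log2 scale (adjusted p = 0.00449). Of the STAT3 list, the pluripotency factors Klf4 (1.31) and Klf5 (1.49), the kinase gene Pim1 (1.26) and Junb (1.03) were called higher, with adjusted p of 0.00124, 0.000708, 0.0116 and 0.0396. The cathepsin genes Ctsb (1.05, adjusted p = 0.0359) and Ctsl (1.11, adjusted p = 0.0123) rose, as did the neighbours Gsc (2.08, adjusted p = 0.0185) and Otub2 (1.79, adjusted p = 0.0264).

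The genes outside the family whose pattern was most like that of Serpina3m over the 10 libraries were Gca, Rhobtb3, Popdc3, Nln and Nsg2, with Pearson correlations of log2(CPM + 1) of 0.961, 0.957, 0.956, 0.947 and 0.945. These are descriptions over libraries that fall into 5 lines, and they carry no p. Among the members the correlation with Serpina3m was 0.943 for Serpina3k, 0.89 for Serpina3n, 0.852 for Serpina3c and -0.254 for Serpina3i. Gca, which encodes the calcium-binding protein grancalcin, was at 62.3 and 53.9 CPM in Daxx -/- and 15.8 and 20.8 CPM with DAXX, and at 91.7 and 76.0 CPM in H3.3 KO, 58.1 and 46.3 CPM with H3.3 WT and 32.4 and 40.7 CPM with the mutant. Its log2 changes were -1.66 ± 0.21, -0.68 ± 0.20 and -1.20 ± 0.20, smaller than those of Serpina3m in each rescued line. Nsg2, a neuronal vesicle protein gene, was at 10.8 and 12.7 CPM in Daxx -/- and 1.04 and 0.729 CPM with DAXX, and its log2 changes were -3.71 ± 0.31, -1.54 ± 0.28 and -0.85 ± 0.27. Nln, which encodes the peptidase neurolysin, followed the same order with log2 changes of only -0.27 ± 0.12, -0.21 ± 0.12 and -0.23 ± 0.12.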

How the data were processed

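PolyA RNA-Seq libraries of 5 mESC lines with 2 libraries each were analysed, grouped by the line in their labels. The authors aligned reads with Bowtie and estimated expression with RSEM, and the submitters' processing notes name the mm9 build. Versions and read length are not given in the sources used here. What the authors deposited, under the name TPM, holds expected counts for each gene without normalization. The NEBNext Ultra kit was used and whether counting used strand is not stated.

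Expected counts were rounded and entered edgeR (4.0.16, under R 4.3.3), in a quasi-likelihood fit of all 10 libraries with median-of-ratios factors, for the 13201 genes that reached 1 CPM in 2 libraries or more, with 6 comparisons. CPM were scaled by the library total times its factor. A call needed an adjusted p (Benjamini-Hochberg) below 0.05 together with a change of 2-fold or more. Standard errors are the log2 fold change divided by the square root of F, and intervals use Student's distribution with prior (4.07) and residual (5) degrees of freedom. Pooled folds have 95% exact counting intervals. PCR reads are not independent molecules, so intervals and floors cover counting error only. DESeq2 (version 1.42.0), TMM factors, no factors, no filter, separate fits, a replicate block and fits without 1 library were alternatives, and the sum without Serpina3i and unrounded counts were added after seeing the data. Gene models are GENCODE vM21 on GRCm38, coding sequences were aligned with MAFFT (version 7.526), and upstream windows are from RefSeq (GRCm38.p6). The members and gene lists were chosen with earlier results of these data known. Named genes were all members, each list gene called (1 of them is not reported here), and the 5 genes most like Serpina3m, and a few others were named after their values were seen.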

Additional observations from a re-analysis of the deposited data

Results flagged for a closer look

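Serpina3g was lower with DAXX and higher with H3.3 WT, at counts close to the limit of detection. Its log2 ratio was -2.95 with DAXX, with both DAXX-rescued libraries below both Daxx -/- libraries and under the floor of 3 counts. In CPM both libraries with H3.3 WT, and both with H3.3 L126A-L130A, lay above both H3.3 KO libraries. For the mutant that separation was 0.436 against 0.405 CPM, and the counting interval of its pooled ratio (0.697 to 4.4) includes no difference. The difference was not tested, since the gene did not pass the filter on low values and its highest expected count was 17.71.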

How the results depend on the processing

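Over 11 alternatives the direction of Serpina3c, Serpina3k, Serpina3m and Serpina3n was the same in every comparison with a knockout line. In every comparison but mutant against WT, the number of members called differed from the main fit in at least 1 fit without 1 library. The number called over all genes changed as well. With each comparison fitted alone the members called were 1 for DAXX, 4 for H3.3 WT and 0 for H3.3 KO against Daxx -/-. Over all genes these fits called 1, 350 and 835. With library size alone 1 member was called for H3.3 WT, beside 25 of all genes. The summed members without 1 library ranged from -5.46 to -4.75 for DAXX, from -3.87 to -3.30 for the mutant and from 0.74 to 1.45 for H3.3 KO against Daxx -/-. Without Serpina3i the sum gave -8.22 for DAXX, -3.23 for H3.3 WT, -3.86 for the mutant and 6.06 for H3.3 WT against DAXX. With library size alone 2 genes of the STAT3 list were called in H3.3 KO against Daxx -/- and 1 protease in H3.3 WT against DAXX. Serpina3n, mutant against WT, turned to -0.02 with library size alone, -0.00 with the replicate block, -0.02 with unrounded counts, -0.15 without H3.3 KO + H3.3 WT replicate 1 and -0.14 without H3.3 KO + H3.3 L126A-L130A replicate 1, with a range without 1 library of -0.15 to 0.20. Serpina3i in H3.3 KO against Daxx -/- ran from -1.13 to 0.03 without 1 library, with 0.03 without H3.3 KO replicate 2. The cause was not tested.

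The replicate numbers were not taken to pair libraries, with correlations of deviations between lines from -0.0441 to 0.574. With the replicate block 4, 3 and 4 members were called for DAXX, H3.3 WT and the mutant, 0 for mutant against WT, 1 for H3.3 KO against Daxx -/- and 2 for H3.3 WT against DAXX. Over all genes the block raised the calls from 143 to 621, from 33 to 105, from 104 to 461, from 68 to 234, from 1543 to 1895 and from 1116 to 1569 in the order of the 6 comparisons. DESeq2 called 531, 209, 444, 323, 1712 and 1382, no filter 233, 53, 203, 125, 1614 and 1181, separate fits 1, 350, 50, 22, 835 and 1697, and library size alone 123, 25, 99, 39, 1467 and 1047.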
